A study of Mus musculus with 20 samples.

Results

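Retinoic acid synthesis and binding genes were followed in bulk RNA of mouse striatum and hippocampus. The 9 genes were taken as a named family, out of 27179 genes in the deposited table, and all 9 were found in it by Entrez identifier. The family was chosen by a measured value, since Crabp2, among all genes of these libraries, had the smallest p for a genotype effect that differed between tissues. The values of Crabp2 by genotype, and the difference of genotype effects of all 9 genes, are therefore given as a description with no test.

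Retinoic acid is made from vitamin A inside cells. Stra6, a membrane receptor, takes up retinol from its carrier protein, a first dehydrogenase oxidises retinol to retinal, and the aldehyde dehydrogenases Aldh1a1, Aldh1a2 and Aldh1a3 turn retinal into retinoic acid. Crabp1 and Crabp2 bind retinoic acid in the cytoplasm, Crabp2 being known for carrying it to the nuclear receptors Rara, Rarb and Rarg, which act with Rxr partners on target genes. Cyp26b1 breaks retinoic acid down. In the forebrain, retinoic acid is known for its part in the development of striatal projection neurons, and the meninges are a known source of it.

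The 20 libraries came from C57BL/6 mice and formed 4 groups of 5, namely striatum and hippocampus, each labelled wild type or Helios -/-. Helios is a zinc finger transcription factor encoded by Ikzf2, and a -/- mouse carries the deletion in every cell, not in 1 cell type. The age of the mice and the deleted part of the gene are not given in the sources used here. Nor do they say that each library was a different mouse, and every p-value here reflects library-to-library spread, which may be technical. Per the labels, total RNA entered a stranded mRNA kit and was read as single reads of 75 bp.

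Between 16400104 and 37050613 reads per library could be recovered. Levels are RPKM, read numbers per gene length and per library size, as the authors deposited them, after lost decimal marks were restored. The summed RPKM of 12 striatal neuron markers was 378 to 693 in striatal libraries and 31.2 to 49.0 in hippocampal libraries. That of 10 hippocampal neuron markers was 718 to 997 in hippocampus and 124 to 528 in striatum. Wild-type striatal replicate 5 and Helios -/- striatal replicate 7 were at 528 and 522, and the other striatal libraries at 124 to 291. Beside these striatal libraries, 4 others stood apart. Wild-type striatal replicate 4 had a summed RPKM of 279 for 18 meningeal fibroblast markers, against 42.0 to 75.0 in the other 4 libraries of its group. In Helios -/- hippocampal replicate 8 this sum was 562, and genes shorter than 1 kb were above the other hippocampal libraries by a median of 0.57 on the log2 scale while genes longer than 5 kb were below them, at -0.65. In Helios -/- hippocampal replicate 7, 1 feature with no symbol in the reference took 21.9% of the reads, against 0.979% to 6.29% for the leading feature of each other library. In the library labelled Helios -/- hippocampal replicate 5, the summed RPKM of 10 choroid plexus markers was 396, against 23.2 to 98.8 in the other 9 hippocampal libraries.

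Ikzf2 was at 3.66, 2.81, 2.36, 2.09 and 2.31 RPKM in wild-type striatal replicates 1 to 5 and at 1.11, 0.842, 1.09, 0.849 and 0.76 in Helios -/- striatal replicates 6 to 10. All 5 libraries labelled Helios -/- lay below all 5 labelled wild type, a log2 difference of -0.91 ± 0.11 (SE; limma adjusted p = 0.1). In hippocampus the groups overlapped. The library labelled wild type replicate 6 was at 0.782 RPKM and the library labelled Helios -/- replicate 5 at 1.43, each on the side of the other group. These 2 numbers carry opposite genotype labels in the 2 tissues, so every hippocampal direction by genotype below is as labelled, and values without numbers 5 and 6 are given where they matter.

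Crabp1 was the most abundant of the 9 genes in both tissues, and had the largest tissue difference on the log2(RPKM + 1) scale. Its mean was 81.5 ± 27.6 RPKM in striatum (SD, n = 10) and 7.53 ± 2.41 in hippocampus (SD, n = 10), or 10.8 times as high. In the opposite direction, Aldh1a2 was at a median of 0.0821 RPKM in striatum and 4.79 in hippocampus. The filter on low values asked for 0.5 RPKM in 5 libraries. Aldh1a1 and Aldh1a2 passed it through hippocampus and Aldh1a3 through striatum, so these 3 had to differ and are described with no test. Of the other 6 genes, Crabp1, Rara and Stra6 were higher in striatum and Rarg was lower at an adjusted p below 0.05 (limma on log2(RPKM + 1) over 15347 genes), and Crabp2 and Cyp26b1 were not called. Of all genes tested, 48.1% passed, 23.0% higher and 25.1% lower, so a tissue difference was common in this comparison. In bulk tissue, fewer cells of a type and less RNA per cell cannot be told apart.

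**Figure D1:**
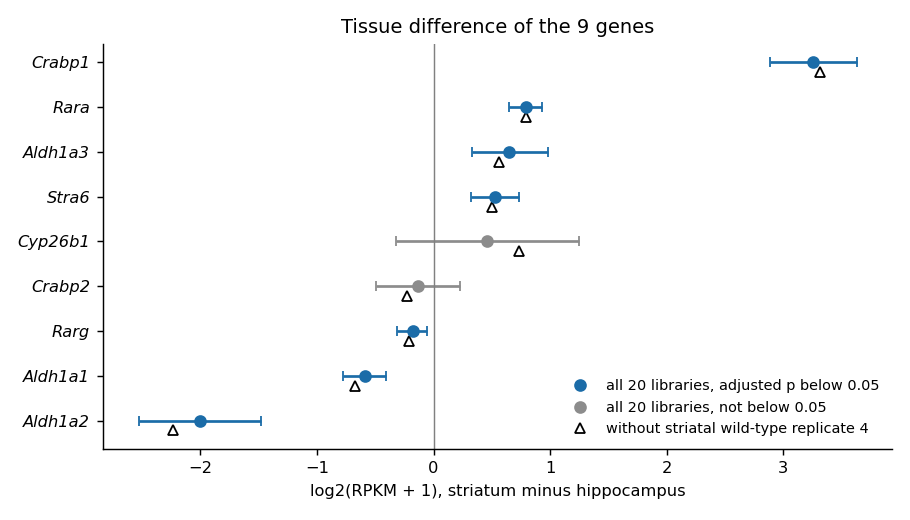
Tissue difference of each of the 9 genes, as the mean of the striatal groups minus that of the hippocampal groups on the log2(RPKM + 1) scale, with its 95% interval; triangles give the value without wild-type striatal replicate 4. Crabp1 stands at 3.26 and Aldh1a2 at -2.00, and the intervals of Cyp26b1 and Crabp2 span 0. Aldh1a1, Aldh1a2 and Aldh1a3 passed the filter through 1 tissue and had to differ, so their intervals and colours are no test.

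The uptake receptor Stra6 (Entrez 20897, chromosome 9, 58063793 to 58154004, GRCm38) was higher in striatum. Its RPKM ran from 1.98 to 4.45 in striatum, with a median of 3.24, and from 1.46 to 3.02 in hippocampus, with a median of 1.95. The ranges overlapped, and the log2 difference was 0.53 ± 0.10 (SE; limma adjusted p = 0.000178).

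The 3 dehydrogenases that make retinoic acid did not share a tissue pattern. Aldh1a1 (Entrez 11668, chromosome 19, 20492583 to 20643463) was at 0.0341 to 1.03 RPKM over all libraries, so it rests on few reads, 2 to 59 per library. Its level was lower in striatum, at a median of 0.0971 RPKM against 0.7 in hippocampus, a log2 difference of -0.59 ± 0.09 (SE). Mouse Aldh1a1 has a close paralog, Aldh1a7, and how reads that fit both were assigned was not tested, which leaves its values uncertain.

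Aldh1a2 (Entrez 19378, chromosome 9, 71215789 to 71296243) showed the clearest separation of the dehydrogenases. In striatum it was at 0.0977, 0.407, 0.024, 5.0 and 0.0612 RPKM in wild-type replicates 1 to 5 and at 0.0665, 0.139, 0.0538, 0.168 and 0.0663 in Helios -/- replicates 6 to 10. In hippocampus it was at 1.75, 4.97, 3.46, 5.0 and 3.27 RPKM in wild-type replicates 1, 2, 3, 4 and 6 and at 4.22, 4.8, 7.72, 4.78 and 5.0 in Helios -/- replicates 5, 7, 8, 9 and 10. Wild-type striatal replicate 4, which also carried the high meningeal sum, was the only striatal library within the hippocampal range. The log2 difference was -2.00 ± 0.25 (SE), and -2.24 without that library. The striatal mean of 0.609 RPKM was 13.5% of the hippocampal mean, and 2.67% without that library, which as a ratio of means is a wider gap than that of Crabp1.

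The restored mark of Aldh1a2 in that 1 library was called unsure under a first, stricter rule, which left the gene out of the tissue test. The rule was loosened after this was seen, because 5.0 is the lowest value that the digits allow.

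Aldh1a3 (Entrez 56847, chromosome 7, 66390892 to 66427477) had the higher mean in striatum. It ran from 0.21 to 2.56 RPKM there and from 0.137 to 0.412 in hippocampus. Striatal libraries spread over 12.2-fold, with wild-type replicate 4 the highest and Helios -/- replicate 6 the lowest, so the ranges overlapped. The log2 difference was 0.65 ± 0.15 (SE). On RPKM, which is per length, Aldh1a2 was the most abundant of the 3 dehydrogenases in hippocampus, with a mean of 4.5 against 0.742 for Aldh1a1 and 0.234 for Aldh1a3. In the 9 striatal libraries other than wild-type replicate 4, Aldh1a3 had the highest mean, 0.884 against 0.12 and 0.0922.

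Crabp1 (Entrez 12903, chromosome 9, 54764748 to 54773110) was at 65.5, 81.1, 96.8, 49.1 and 63.7 RPKM in wild-type striatal replicates 1 to 5 and at 145, 54.7, 83.4, 97.2 and 78.4 in Helios -/- striatal replicates 6 to 10. In hippocampus it was at 11.5, 4.79, 5.89, 6.11 and 9.99 RPKM in wild-type replicates 1, 2, 3, 4 and 6 and at 5.21, 7.9, 10.8, 6.22 and 6.9 in Helios -/- replicates 5, 7, 8, 9 and 10. The lowest striatal library was above the highest hippocampal library. The log2 difference was 3.26 ± 0.18 (SE; limma adjusted p = 1.21e-11).

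Crabp2 (Entrez 12904, chromosome 3, 87948693 to 87953372) is the binding protein known for delivery to the nuclear receptors. Averaged over genotypes, it did not differ between tissues beyond the spread of the libraries. Crabp2 was at 2.66 ± 1.39 RPKM in striatum and 3.25 ± 2.38 in hippocampus (SD, n = 10 each). The log2 difference was -0.13 with a 95% interval of -0.49 to 0.23 (limma adjusted p = 0.559). That average holds opposite directions by labelled genotype. Helios -/- libraries were at 1.44 to 2.26 RPKM in striatum and 2.87 to 9.34 in hippocampus. Wild-type libraries overlapped, at 2.12 to 6.37 in striatum and 1.19 to 2.52 in hippocampus.

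Of the receptors, Rara (Entrez 19401, chromosome 11, 98927800 to 98974942) was higher in striatum, at 5.19 to 7.48 RPKM against 2.64 to 4.0 in hippocampus, with no overlap. Its log2 difference was 0.79 ± 0.07 (SE; limma adjusted p = 8.95e-09). Rarg (Entrez 19411, chromosome 15, 102234938 to 102257522) was slightly lower in striatum, at 3.04 ± 0.442 RPKM against 3.59 ± 0.368 (SD, n = 10 each). That difference, -0.18 ± 0.06 (SE; limma adjusted p = 0.0156), no longer passed without numbers 5 and 6 (limma adjusted p = 0.0599) or with RPKM rescaled to the recovered read total (limma adjusted p = 0.0701).

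Cyp26b1 (Entrez 232174, chromosome 6, 84571414 to 84593908), the degrading enzyme, varied widely among striatal libraries. It was at 3.82, 3.22, 25.6, 0.357 and 8.05 RPKM in wild-type striatal replicates 1 to 5 and at 28.0, 9.53, 13.5, 19.5 and 7.8 in Helios -/- striatal replicates 6 to 10, a range of 78.4-fold. These levels rest on 51 reads in wild-type replicate 4 and at least 491 in each other striatal library. In hippocampus it was at 9.58, 7.94, 6.14, 6.69 and 7.12 RPKM in wild-type replicates 1, 2, 3, 4 and 6 and at 4.19, 5.97, 2.01, 4.52 and 7.4 in Helios -/- replicates 5, 7, 8, 9 and 10. The hippocampal values lay within the striatal range, and the tissue difference of 0.46 had a 95% interval of -0.32 to 1.25 (limma adjusted p = 0.328).

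**Figure D2:**
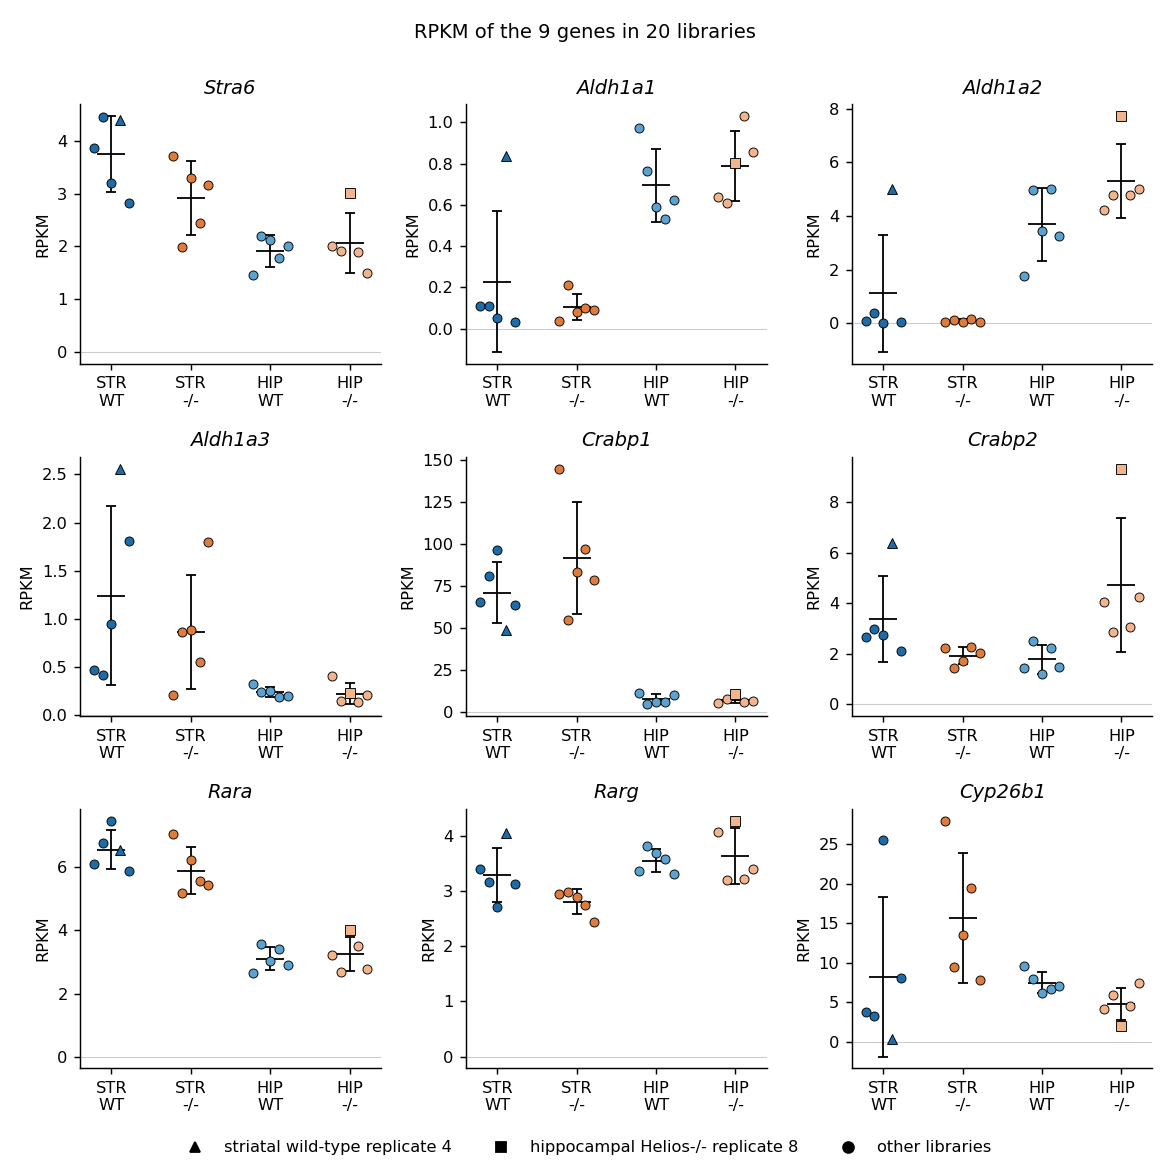
RPKM of the 9 genes in each of the 20 libraries by tissue (STR, striatum; HIP, hippocampus) and labelled genotype, with the group mean and SD (n = 5) as bars. Crabp1 is at 49.1 to 145 in striatum and 4.79 to 11.5 in hippocampus, and the triangle marks the striatal library with Aldh1a2 at 5.0 and Cyp26b1 at 0.357.

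In each tissue the levels had an order. In striatum Crabp1 led, followed by Cyp26b1 at a mean of 11.9 RPKM and Rara at 6.23, then by Stra6, Rarg and Crabp2 at 3.34, 3.04 and 2.66, and by Aldh1a3, Aldh1a2 and Aldh1a1 at 1.05, 0.609 and 0.166. The ranges of Stra6, Rarg and Crabp2 overlapped, as did those of Cyp26b1 and Rara. In hippocampus Crabp1 and Cyp26b1 (6.15) overlapped at the top, Aldh1a2, Rarg, Crabp2 and Rara followed at 4.5, 3.59, 3.25 and 3.18 with overlapping ranges, and Stra6, Aldh1a1 and Aldh1a3 came last at 1.99, 0.742 and 0.234.

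The rest of the pathway was followed in 27 other retinoid genes, of which 18 passed the filter and 13 differed between tissues, 7 higher in striatum and 6 lower, beside the 48.1% of all genes. Rxrg, a partner of the retinoic acid receptors, was at 68.9 ± 13.4 RPKM in striatum and 1.57 ± 0.506 in hippocampus (SD, n = 10 each), a log2 difference of 4.77 ± 0.12 (SE; limma adjusted p = 6.24e-17). Rarb, the third receptor and a well-known target of retinoic acid, was at 42.1 ± 8.25 RPKM in striatum and 1.74 ± 0.355 in hippocampus, a difference of 3.96 ± 0.10 (SE; limma adjusted p = 1.3e-16). Rarb, with unsure marks in 2 libraries, was also left out under the stricter rule. Among the 3 receptors Rarb had the highest RPKM in striatum, above Rara at 6.23 and Rarg at 3.04, while in hippocampus Rarb had the lowest mean of the 3.

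Rdh10, the dehydrogenase that makes retinal, was higher in striatum by 0.25 ± 0.08 (SE; limma adjusted p = 0.0104), at 8.37 against 6.92 RPKM. Dhrs3, which turns retinal back to retinol, was at 4.28 and 4.09 RPKM and not called (0.06 ± 0.09, SE; limma adjusted p = 0.627). Rdh5, another retinol dehydrogenase, was lower in striatum, at 1.2 against 3.12 RPKM (-0.90 ± 0.09, SE; limma adjusted p = 5.68e-08).

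Ttr, a carrier of retinol-binding protein that is abundant in choroid plexus, was lower in striatum by more than any other gene of the list (-4.37 ± 0.45, SE; limma adjusted p = 1.14e-07). The summed RPKM of the 10 choroid plexus markers, of which Ttr is 1, was 2.85 to 20.2 in striatum and 23.2 to 396 in hippocampus. Their part in the level of Ttr was not tested. The other retinoic acid hydroxylases, Cyp26a1 and Cyp26c1, had means of at most 0.0394 RPKM in both tissues, and of the 3 only Cyp26b1 passed the filter.

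**Figure D3:**
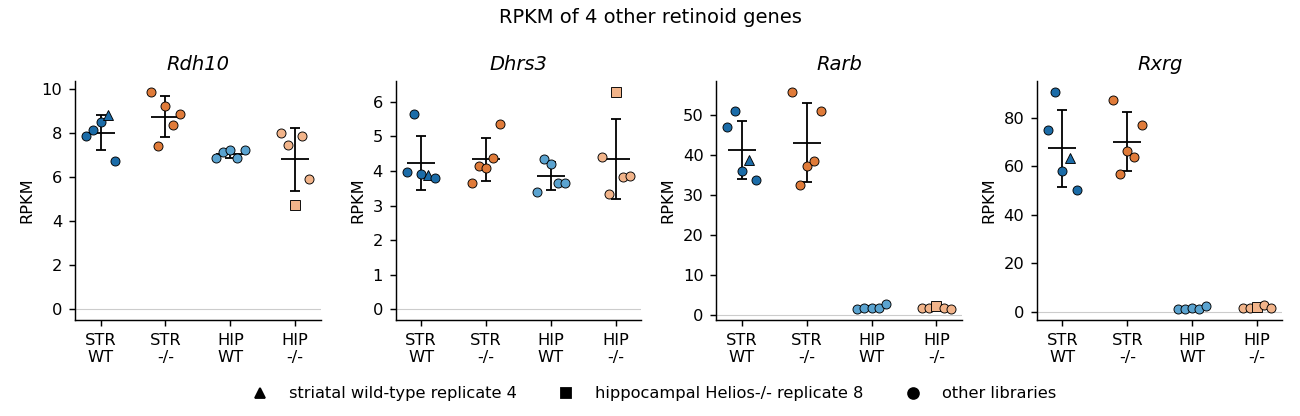
RPKM of 4 other retinoid genes by tissue and labelled genotype in the 20 libraries, with group means and SD (n = 5). Rarb is at 32.5 to 55.7 in striatum and 1.33 to 2.57 in hippocampus, while Dhrs3 averages 4.28 and 4.09.

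Promoter sequence is shown for Crabp1, the most abundant member, and for Rarb, whose start site carries a known retinoic acid response element. Both are the 250 bases upstream of an annotated start, from RefSeq on build GRCm38.p6. Retinoic acid receptors are known to bind direct repeats, and the motif searched on both strands was NGNTCA followed by 5 bases and by NGNTCA again; capitals mark a match.
Crabp1, chr9:54764498-54764747, plus strand: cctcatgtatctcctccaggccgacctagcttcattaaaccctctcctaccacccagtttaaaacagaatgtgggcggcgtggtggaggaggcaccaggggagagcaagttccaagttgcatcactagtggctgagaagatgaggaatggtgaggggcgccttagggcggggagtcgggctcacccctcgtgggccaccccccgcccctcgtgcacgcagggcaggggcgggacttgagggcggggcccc
Rarb, chr14:16575477-16575726, minus strand: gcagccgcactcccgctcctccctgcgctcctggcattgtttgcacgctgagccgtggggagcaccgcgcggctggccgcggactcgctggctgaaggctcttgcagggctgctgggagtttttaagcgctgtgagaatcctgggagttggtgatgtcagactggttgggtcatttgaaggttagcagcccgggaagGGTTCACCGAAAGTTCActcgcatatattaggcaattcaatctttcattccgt
The Rarb window held 1 match, which starts 53 bases upstream of the start site. Crabp1 held none, and nor did any of the 15 promoters on record for 7 of the 9 genes. Crabp2 and Aldh1a3 had no promoter on record. Repeats with other spacings, and sequence outside these windows, were not searched. Of all 32851 promoter windows, 255 held a match, or 0.776%. A match is a description of letters, not a measured site.

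The question of the study was what loss of Helios changes in each tissue. In striatum 0 of 14918 genes were called (0.0%), with 606 genes at an unadjusted p below 0.05 (4.06%), and in hippocampus 0 of 14871 (0.0%), with 672 (4.52%). With limma voom on the recovered reads the counts were also 0. Of the 8 genes other than Crabp2, 6 could be tested in striatum and 7 in hippocampus. None passed, and the smallest adjusted p was 0.986 in striatum and 0.709 in hippocampus. Ikzf2, the targeted gene, was itself not called in striatum or hippocampus (limma adjusted p = 0.1 and 0.709). A count of 0 calls therefore does not show that no gene changed.

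Crabp2, whose values chose the family, was at 2.66, 3.0, 2.75, 6.37 and 2.12 RPKM in wild-type striatal replicates 1 to 5 and at 2.22, 1.44, 1.72, 2.26 and 2.04 in Helios -/- striatal replicates 6 to 10. Most wild-type striatal libraries were above the Helios -/- libraries, but the groups overlapped, since wild-type replicate 5 was below Helios -/- replicates 6 and 9. The means were 3.38 ± 1.7 RPKM in wild type and 1.93 ± 0.35 in Helios -/- (SD, n = 5 each), and the wild-type mean was 2.63 ± 0.373 without replicate 4 (SD, n = 4).

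In hippocampus Crabp2 was at 1.45, 2.52, 1.19, 2.24 and 1.49 RPKM in libraries labelled wild type, replicates 1, 2, 3, 4 and 6, and at 4.06, 2.87, 9.34, 3.06 and 4.26 in those labelled Helios -/-, replicates 5, 7, 8, 9 and 10. All 5 labelled Helios -/- lay above all 5 labelled wild type, at means of 4.72 ± 2.65 and 1.78 ± 0.569 (SD, n = 5 each). With the disputed labels of replicates 5 (4.06) and 6 (1.49) exchanged, the groups would overlap. Without both, the highest wild-type value, 2.52, stayed below the lowest Helios -/- value, 2.87. The log2 difference, Helios -/- minus wild type, was -0.52 in striatum and 0.97 in hippocampus. It was -0.31 in striatum without wild-type replicate 4, 0.73 in hippocampus without Helios -/- replicate 8, and -0.66 and 0.95 without numbers 5 and 6. Striatum minus hippocampus, the genotype effects of Crabp2 differed by -1.48, and by -1.28 without wild-type striatal replicate 4.

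The summed meningeal markers were at 43.3 to 54.6 RPKM in Helios -/- striatum, 42.0 to 279 in wild-type striatum, 203 to 228 in wild-type hippocampus and 206 to 562 in Helios -/- hippocampus. The sums overlapped by genotype in both tissues, and in hippocampus Helios -/- replicates 7 and 10, at 206 and 225, lay within the wild-type range. Single markers could differ from the sum. In hippocampus Slc13a4 was at 0.163 to 1.15 RPKM in wild type and 1.35 to 3.52 in Helios -/-. Ogn was at 2.39 to 5.35 and 6.52 to 10.5. These did not overlap by label, while every other marker of the list did. Of the 18 markers, 17 had a lower mean in Helios -/- striatum, by a median of -0.39 on the log2 scale, or -0.07 with 15 lower when wild-type replicate 4 was left out. In Helios -/- hippocampus 16 of 18 were higher, by a median of 0.27, or 0.15 without replicate 8. Of 10 choroid plexus markers 9 were higher in Helios -/- hippocampus, by a median of 0.38, or all 10 by 0.45 without replicate 8. Of 9 vascular markers 8 were lower, by a median of -0.20, or 6 by -0.06 without replicate 8. No meningeal marker was at 0 in all libraries of a group. Crabp2 has a length of 900 bases here, under the 1 kb at which Helios -/- hippocampal replicate 8 read high. The part of these other cell types and of gene length in the values of Crabp2 was not tested.

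**Figure D4:**
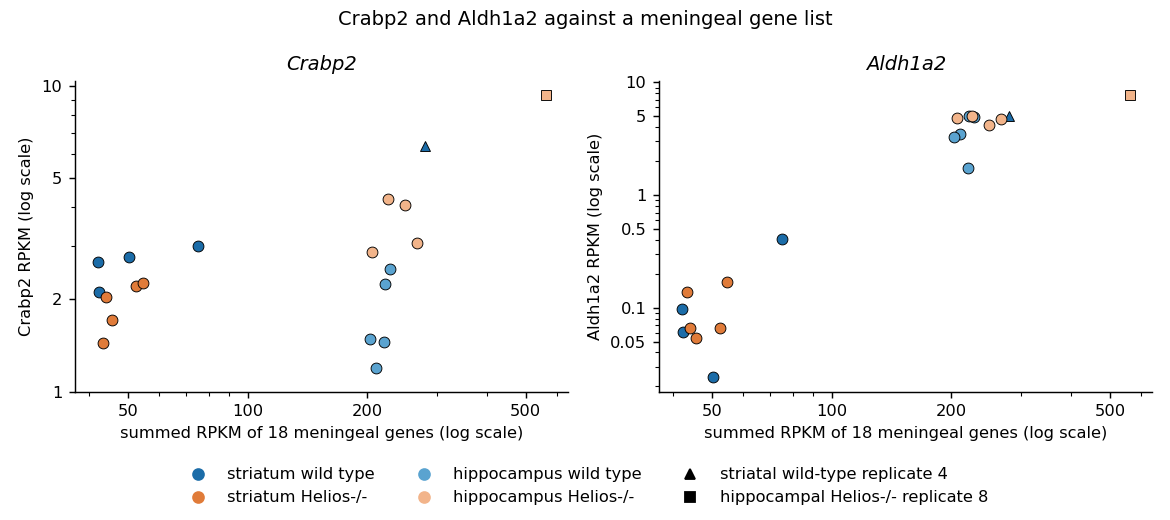
RPKM of Crabp2 and Aldh1a2 in each library against the summed RPKM of 18 meningeal markers, both on log axes, by tissue and labelled genotype. Wild-type striatal replicate 4 (triangle, sum 279) lies among hippocampal libraries, and Helios -/- hippocampal replicate 8 (square, sum 562) is farthest to the right.

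The genes whose pattern over the 20 libraries was most like that of Crabp2, after the mean of each tissue was subtracted, were Sult1a1, Osr1, Ifitm1, Slc13a4 and Bmp4, with Pearson correlations of 0.949, 0.93, 0.926, 0.925 and 0.92 among 15347 genes. Slc13a4, an anion transporter, is 1 of the 18 meningeal markers. For Aldh1a2 they were Col6a2, Serpinf1 and Colec12, at 0.973, 0.972 and 0.971. For Aldh1a3 they were Fjx1, Ctbp2 and Snx1, at 0.799, 0.794 and 0.784. All points share libraries, and these are descriptions with no test. Crabp2 and Aldh1a2 were highest of their tissues in wild-type striatal replicate 4 and Helios -/- hippocampal replicate 8. Sult1a1 was also highest there, at 4.33 and 8.07 RPKM. The correlations were not computed without these libraries, so how far they rest on them is not known.

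Among the tested genes other than Crabp2, Cyp26b1 had the largest differences by genotype on the log2(RPKM + 1) scale. In striatum it was at 15.7 ± 8.25 RPKM in Helios -/- and 8.22 ± 10.1 in wild type (SD, n = 5 each), a log2 difference of 1.38 ± 0.68 (SE; limma adjusted p = 0.986) with a 95% interval of -0.13 to 2.90. It was 0.86 without wild-type replicate 4, whose Cyp26b1 was lowest. In hippocampus it was at 4.82 ± 2.02 RPKM in Helios -/- and 7.49 ± 1.34 in wild type, a difference of -0.61 ± 0.24 (SE; limma adjusted p = 0.709), and -0.40 without Helios -/- replicate 8, which had the lowest value. Its genotype effects differed by 1.99 between tissues, in the direction opposite to Crabp2.

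Aldh1a2 in hippocampus was at 5.31 ± 1.38 RPKM in Helios -/- and 3.69 ± 1.36 in wild type (SD, n = 5 each), a log2 difference of 0.46 ± 0.22 (SE; limma adjusted p = 0.709) that ranged from 0.28 to 0.56 when each library was left out. In striatum it was below the filter and had no test, and its wild-type mean was 1.12 RPKM with replicate 4 and 0.148 without it. Crabp1 differed by 0.33 ± 0.24 in striatum and -0.01 ± 0.24 in hippocampus (SE; limma adjusted p = 0.986 and 0.981). The striatal value ranged from 0.14 without Helios -/- replicate 6 to 0.49 without Helios -/- replicate 7. Stra6 differed by -0.28 and 0.06, Rara by -0.14 and 0.04, and Rarg by -0.17 and 0.02 in striatum and hippocampus. Aldh1a3 differed by -0.23 in striatum (-0.03 without wild-type replicate 4) and was below the filter in hippocampus, where Aldh1a1 differed by 0.08. None of these tested differences passed the threshold.

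**Figure D5:**
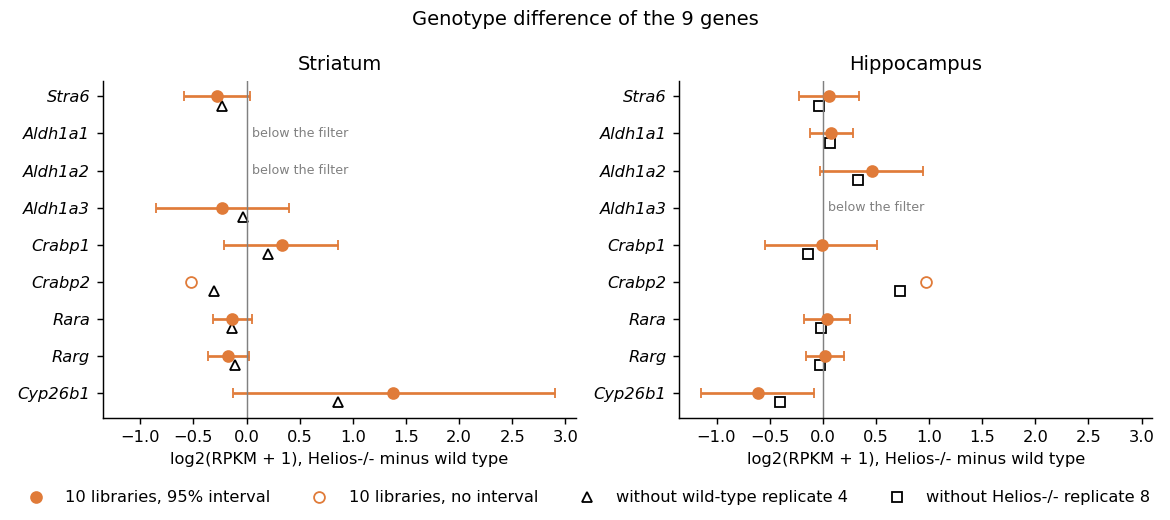
Difference by labelled genotype, Helios -/- minus wild type, on the log2(RPKM + 1) scale in each tissue, with 95% intervals (none for Crabp2); open marks leave out wild-type striatal replicate 4 or Helios -/- hippocampal replicate 8. Crabp2 is at -0.52 in striatum and 0.97 in hippocampus, and Cyp26b1 at 1.38 and -0.61.

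The 27 other retinoid genes had 18 tested and none called in either tissue by genotype. Rarb was at 41.2 ± 7.34 RPKM in wild-type and 43.0 ± 9.86 in Helios -/- striatum, and Rxrg at 67.5 ± 15.9 and 70.3 ± 12.1 (SD, n = 5 each). In the authors' deposited table, the log2 fold change of Crabp2 was -0.34 ± 0.13 (SE) in striatum and 0.29 ± 0.15 in hippocampus. Those values are per transcript and not on the log2(RPKM + 1) scale, so their sizes are not comparable with the differences above. No transcript of the other 8 genes with a readable adjusted p had one below 0.05 there. None was readable for Aldh1a1 and Aldh1a2 in striatum, for Stra6 in either tissue, or for some other transcripts.

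Within each tissue, 36 relations between the 9 genes were computed over 10 libraries, 72 in all. None passed after adjustment over the 72, with a lowest adjusted p of 0.106 (permutation test). In striatum Aldh1a1 and Aldh1a2 had a Pearson r of 0.97 (permutation p = 0.0122) and a Spearman rho of 0.81 (permutation p = 0.00695). That r was 0.58 without the 2 libraries farthest from the median of Aldh1a1 and 0.40 without wild-type replicate 4 alone.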

How the data were processed

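RNA was measured in 20 libraries, 4 groups of 5. The authors deposited RPKM for 27179 genes and, per tissue, a comparison table of their own (log2 fold changes with errors and p-values), whose other values were used only as deposited. The submitters' processing notes name BWA 0.7.4, featureCounts, HTSeq, DESeq2, SAMtools, cutadapt 1.3, FastQC 0.11, CASAVA 1.8.2 and bcl2fastq 2.15.0, with no role or order, and the build mm10.

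In the deposited tables as used here every value of 1 or more, 51.1% of the RPKM, had lost its decimal mark. Each mark was placed where 1 gene length gave whole reads in all libraries, to within 0.001, and otherwise nearest to the tissue's other values. Of simulated lost marks, 99.454% came back right (6000 genes). Genes with an unsure mark, 121 in striatum and 281 in hippocampus, were left out. The rule for an unsure mark was loosened after the data were seen, from 546 and 663 genes; the first rule left out Aldh1a2 and Rarb, and a fit under it is an added alternative. The library sizes behind the RPKM matched a trimmed-mean scaling, which the authors' table therefore already holds.

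limma 3.58.1 (R 4.3.3; trend, robust) was fitted to log2(RPKM + 1) over genes at 0.5 RPKM or more in at least 5 libraries, with Benjamini-Hochberg adjustment over all genes tested and a threshold of 0.05. Differences on this scale understate changes of low genes. The tissue difference was fitted over all 20 libraries with 1 mean per group. The members, lists and comparisons were chosen with earlier results of these data known. Named were the 9 genes, Ikzf2, and the genes most like Crabp2, Aldh1a2 and Aldh1a3. From the other retinoid genes, up to 4 with the smallest adjusted p were named, plus Rarb, Rxrg, Rdh10 and Dhrs3. Ttr, Cyp26a1, Cyp26c1 and Ogn were named after their values were seen. A further gene that the rule named is not reported here. All 40 same-group pairs of libraries differed by more than counting noise, so none was merged. Helios -/- hippocampal replicate 10 carried the tissue tag striatum, but its title and description said hippocampus.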

Additional observations from a re-analysis of the deposited data

Results flagged for a closer look

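In 5 of 36 groups of 5 libraries, 1 library lay far from the others. Its gap to its nearest neighbour, relative to the group's range, was above Dixon's 95% critical value. Chance gives about 1 in 20 for independent groups of normally distributed values. The 36 groups are RPKM of 9 genes in the same libraries, so that rate is no measure of chance here. Of the 5 flags, 3 came from wild-type striatal replicate 4, with Crabp2 at 6.37 RPKM, Aldh1a1 at 0.835 and Aldh1a2 at 5.0. The other 2 came from Helios -/- hippocampal replicate 8, as labelled, with Crabp2 at 9.34 RPKM and Aldh1a2 at 7.72. These libraries had the highest meningeal sums of their tissues, 279 and 562 RPKM, and the part of that signal was not tested.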

How the results depend on the processing

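Counting the 3 dehydrogenases that passed the filter through 1 tissue, there were 7 tissue calls, and as many in every fit that left out 1 library. Those 3 had to differ, so their calls are no test, and 48.1% of all genes tested were called by tissue. There were 6 without numbers 5 and 6, where Rarg was lost, 6 with RPKM rescaled to the recovered read total, and 6 of 8 under the first rule for unsure marks, which left out Aldh1a2; these last 2 settings were chosen after seeing the data. Genotype calls were 0 in every setting for the 8 genes other than Crabp2. The interaction of Crabp2 was -1.48, moved to -1.96 with a pseudocount of 0.1 and to -1.97 with voom, and ranged from -1.6 to -1.24 when each library was left out.

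Values that changed sign were small and not called. In hippocampus by genotype, Crabp1 ranged from -0.14 to 0.14, Rara from -0.02 to 0.09, Rarg from -0.03 to 0.05 and Stra6 from -0.04 to 0.13 when each library was left out. In striatum Aldh1a3 kept its sign in those fits, at -0.39 to -0.03. With the read total Rara was -0.01 and Rarg -0.03. Without numbers 5 and 6 Crabp1 was 0.19 and Rarg -0.03 in hippocampus, and Aldh1a3 was 0.02 in striatum. In that fit the genotype effect in striatum minus that in hippocampus was -0.08 for Crabp1 and 0.11 for Aldh1a3. The replicate block gave the same values by design, since numbers 5 and 6 do not inform its interaction. The cause of the sign changes was not tested.

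Same-numbered libraries of the 2 tissues carry the same code in their column headers and correlated at -0.166 to 0.186. Not all were above 0.1, so the main fit did not pair them. Ranked among the striatal libraries, the same-numbered one came 1 to 4 for each hippocampal library except Helios -/- replicate 8. There it came 9. The tissues may therefore be paired by number, which the main fit ignores. With the replicate number as a block, 7 of the 9 genes were called by tissue and the Crabp2 interaction was -1.61. In that fit, the numbers with opposite genotype labels in the 2 tissues do not inform the interaction. Its interaction values therefore repeat those of the fit without these numbers, and are no separate check. No paired analysis was possible by genotype within a tissue because the genotypes share no number. Genes at few reads, such as Aldh1a1, are the least precise.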
